A study of Mus musculus with 8 samples.

Results

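The motile cilium genes described here are 42 genes of the beating cilium and of the transcription factors that switch it on, named by symbol and taken wherever a row of the array table carried a RefSeq identifier of that symbol. Of the 42, 34 had such a row among the 24625 rows of the table, and none had more than 1 row. No row was matched for Foxj1, the master transcription factor of motile ciliogenesis, or for Ccdc114, Armc4, Dnah3, Dnah12, Ccdc40, Lrrc23 and Cdhr4, so these 8 genes were not analysed. The rule that named the genes used no measured value, but earlier results of these data were known when it was made.

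The study profiled mRNA of lung neutrophils in pneumococcal pneumonia. Both groups were wild type C57BL/6J mice, aged 6 to 12 weeks by the labels (the study's methods give a narrower range within it), and carried no transgene or deletion. The 4 PBS samples came from mice that had been given phosphate-buffered saline (2.3 µl for each g of body weight) intratracheally on the left side, and the 4 SP samples from mice given a suspension of S. pneumoniae in the same way. At 24 hours the lungs were digested with enzymes, and cells that bound anti-Ly6G (an antibody to a neutrophil surface protein) were held on a magnetic column. Such a preparation is enriched rather than single-cell sorted, and RNA from any other cell of the digest that stayed on the column was measured with it. The study's methods report neutrophil purity for samples from mice with pneumonia and give none for PBS samples. Each sample was hybridised to 1 Affymetrix Mouse Gene 1.1 ST array, and the values are log2 signals after robust multi-array averaging, so that a difference of 1 is a 2-fold change. The study describes each sample as coming from a mouse, and p-values set the difference between groups against the spread between samples within the groups.

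Motile cilia are the beating hairs of multiciliated cells, which in the lung line the airways and sweep mucus upward. Their core, the axoneme, is a ring of doublet microtubules around a central pair. Dynein arms on the doublets make the force, and radial spokes and the central pair set the rhythm, while intraflagellar transport carries the parts to the growing tip. In multiciliated cells MCIDAS and GMNC start the program, and FOXJ1 with RFX2 and RFX3 turn on the structural genes. Mature neutrophils carry no motile cilium.

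RFX factors bind the X-box, a sequence that lies close to the start of many cilium genes and is made of inverted repeats. The promoters of 7 of the genes are shown. Upstream of the start, those of Pifo and Ift57 hold that sequence. Those of Hydin, Tekt1, Cdhr3, Sntn and Mcidas hold a copy of a single repeat, GTTGCCA, without a match to the exact X-box form given below. Looser forms of the repeats were not searched for. Differences of the 7 genes between groups ranged from the second largest measured fall, that of Hydin, to almost none, that of Mcidas. The promoters were read from RefSeq windows on GRCm38.p6 that run from 250 bases before to 50 bases after each start. Each line below is 50 bases, 5′ to 3′ on the strand of the gene, and lies before the transcription start. The marked match begins 20 bases before the start in Pifo, 14 in Hydin, 15 in Tekt1 and 7 in Cdhr3. In Sntn, Mcidas and Ift57 it begins 66, 195 and 60 bases before the start, and their lines end further upstream. Capitals mark GTTGCCA on either strand (written TGGCAAC when it lies on the opposite strand), or the longer X-box form, GTTNCC and GGNAAC with up to 3 bases between them.

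Pifo, chr3:106001498-106001547, minus strand: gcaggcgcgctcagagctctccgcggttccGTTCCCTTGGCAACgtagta
Hydin, chr8:110266927-110266976, plus strand: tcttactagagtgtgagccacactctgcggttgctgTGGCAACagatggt
Tekt1, chr11:72361883-72361932, minus strand: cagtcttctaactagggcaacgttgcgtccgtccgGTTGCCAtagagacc
Cdhr3, chr12:33092876-33092925, minus strand: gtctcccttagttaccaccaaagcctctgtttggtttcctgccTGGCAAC
Sntn, chr14:13670788-13670837, plus strand: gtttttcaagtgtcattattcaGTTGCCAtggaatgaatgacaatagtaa
Mcidas, chr13:112993651-112993700, plus strand: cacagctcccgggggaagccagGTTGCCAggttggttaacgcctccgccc
Ift57, chr16:49699215-49699264, plus strand: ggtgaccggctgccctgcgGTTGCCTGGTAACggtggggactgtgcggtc

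The RefSeq promoter table held 40 windows for 36 of the 42 genes. GTTGCCA on either strand lay in 10 of the 40 windows (25%) and in 17 of 70 windows of other motile cilium genes (24.3%), beside 4.38% of all 32851 windows of the table. The full X-box form was rarer, in 2 of the 40 windows, those of Pifo and Ift57, and in 0.804% of all windows. In Pifo the capitals mark the X-box form, whose second repeat shares its bases with a copy of GTTGCCA on the opposite strand. The forkhead sequence GTAAACA, of the kind that FOXJ1 binds, lay in the windows of Ak7 and Sntn among the 42 genes and in 3.65% of all windows. A match of letters is a description of the window and not a mapped binding site.

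Motile cilium genes were clearly detected in the PBS preparations and were lower together in the SP preparations. Averaged over the 34 genes with a row, the signal was 8.57, 9.06, 8.30 and 8.66 on the 4 PBS arrays and 6.38, 6.55, 5.97 and 6.37 on the 4 SP arrays. The groups were thus far apart, with means of 8.65 ± 0.32 and 6.32 ± 0.24 (SD, n = 4). Of the 34 genes, 30 were at least 2-fold lower in SP at an adjusted p of at most 0.05 (limma with Benjamini-Hochberg adjustment over all 24625 rows), where 11.3% of all rows were called so, and 0 were called higher, where 6.37% of all rows were. Their adjusted p-values ran from 8.61e-06 to 0.00109. In these bulk samples, fewer cells of a type and less RNA per cell cannot be told apart.

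The median difference of the 34 genes was -2.64 (SP minus PBS, log2), with a range from -3.53 to 0.17, and the median over all rows was 0.10. A fall of at least 4-fold was measured for 26 of them, against 2.96% of all rows. A fall of at least 8-fold was measured for 8 genes, against 96 rows (0.39%) of the whole table. With SP signals below the background level (defined below) set to that level, an alternative chosen after seeing the data, 30, 24 and 6 genes were lower by at least 2-fold, 4-fold and 8-fold. Without the fold threshold, 32 of the 34 genes were lower at an adjusted p of at most 0.05 (22.6% of all rows) and 0 higher (21.5% of all rows). At an unadjusted p under 0.05, 1 gene (Spag6) was higher, by limma and by the methods' t-test alike. The groups did not overlap in 33 genes (49.0% of all rows), with the SP values below in 32 (21.8% of all rows) and above in Spag6.

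**Figure D1:**
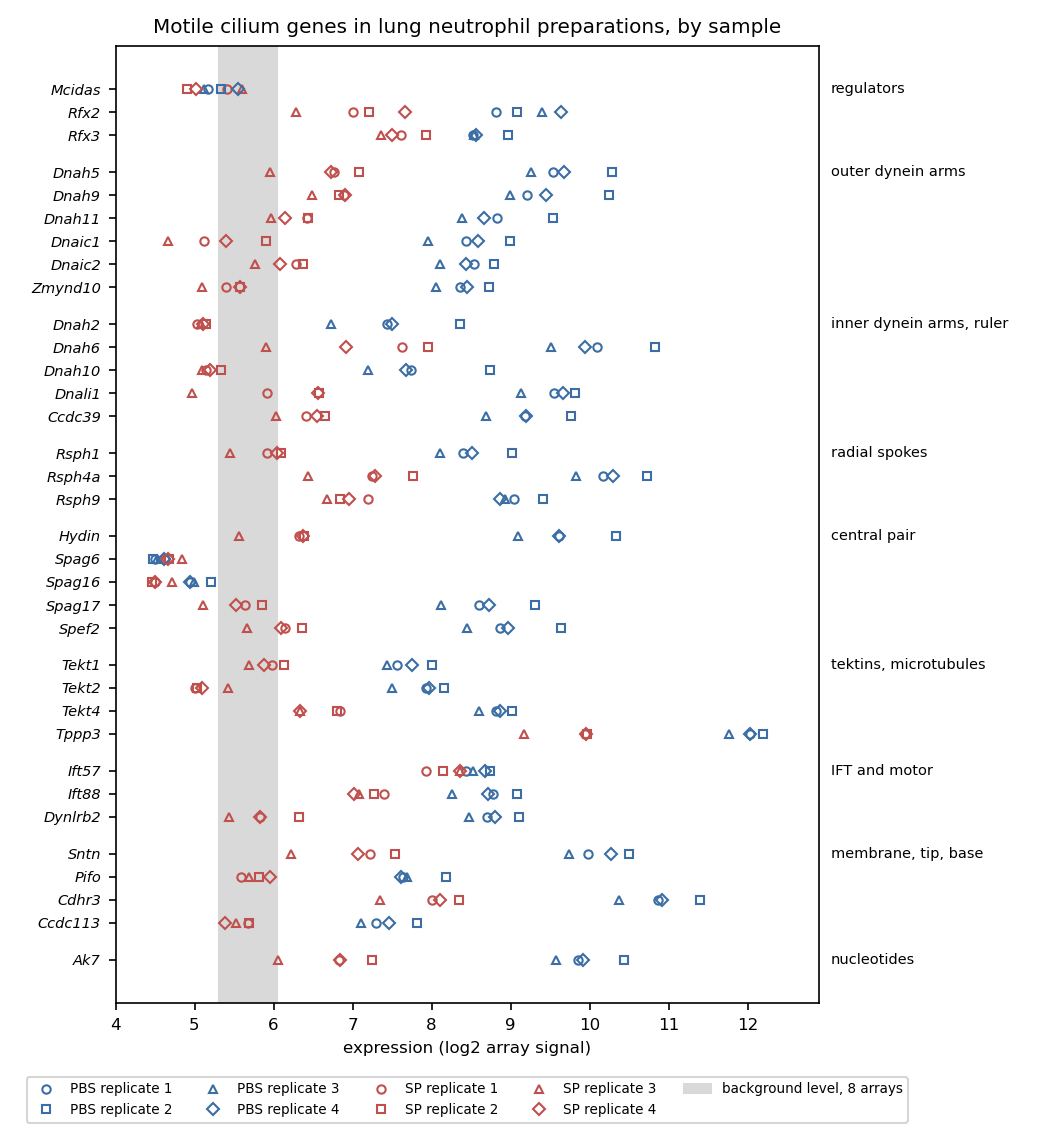
Log2 array signal (horizontal axis) of the 34 motile cilium genes with a row, listed by role, with 1 symbol per sample in blue for PBS and red for SP and the replicate number given by the shape. The grey band spans the background level of the 8 arrays, 5.31 to 6.04. The blue and red symbols are apart in 32 genes with red to the left, and Mcidas, Spag6 and Spag16 lie low in both groups.

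How low a signal can fall on these arrays limits the size of a measured fall. The background level was taken as the 95th percentile of 1080 olfactory receptor rows, a gene family read mainly in the nose, and was 5.31 to 5.49 on PBS arrays and 5.66 to 6.04 on SP arrays. On every PBS array 31 of the 34 genes were above it, and on every SP array 12 were: Rfx2, Rfx3, Dnah9, Rsph4a, Rsph9, Tekt4, Tppp3, Ift57, Ift88, Sntn, Cdhr3 and Ak7. Another 14 were above it on some SP arrays, 11 of them on 3 of the 4, Pifo on 2, and Dnaic1 and Spag17 on 1. Zmynd10, Dnah2, Dnah10, Tekt2 and Ccdc113 were above it on no SP array, so their folds are given as bounds. With the highest of 3 Y-linked genes as the background instead (4.54 to 4.90), 31 of the 34 genes were above it on every SP array.

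Of the 4 regulators of the multiciliated state, 3 had a row and 2 of these were called lower. Rfx2, the RFX factor that drives axonemal genes, had signals of 8.82, 9.08, 9.39 and 9.63 in PBS and 7.01, 7.21, 6.28 and 7.66 in SP. The groups did not overlap, and Rfx2 was 4.57-fold lower in SP (log2 difference -2.19 ± 0.29, SE, limma adjusted p = 0.000567). Its order of arrays differed from most genes of the axoneme, with PBS replicate 4 highest and PBS replicate 1 lowest.

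Rfx3, which acts with Rfx2 and also in cells with a single cilium, fell less, by 1.05 on the log2 scale (limma adjusted p = 0.000786). Its signals were 8.52, 8.97, 8.54 and 8.56 in PBS and 7.61, 7.93, 7.36 and 7.50 in SP, without overlap. That fall lay close to the 2-fold threshold and dropped below it without PBS replicate 2 (-0.94), without SP replicate 3 (-0.97), with arrays centred (-0.77) and with quantile normalization (-0.79). Mcidas, the early switch for the multiciliated fate, was measured at 5.17, 5.34, 5.12 and 5.55 in PBS and at 5.41, 4.91, 5.60 and 5.02 in SP. These values overlapped and were above background on 2 of 4 PBS arrays and on 0 SP arrays, and the difference of -0.06 was not called (limma adjusted p = 0.775).

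The outer dynein arm provides most of the force of the beat. All 6 of its genes with a row were called at least 2-fold lower, with differences from -3.22 to -2.34 and a median of -2.84. Dnah5, a heavy chain whose loss causes primary ciliary dyskinesia, had signals of 9.53, 10.28, 9.26 and 9.67 in PBS and 6.76, 7.08, 5.96 and 6.73 in SP. The lowest PBS signal was more than 2 log2 units above the highest SP signal, and Dnah5 was 8.31-fold lower in SP (limma adjusted p = 8.18e-05). Dnah9 and Dnah11, the other heavy chains, were 6.47-fold and 6.09-fold lower.

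Dnaic1 and Dnaic2 encode the intermediate chains, which hold the heavy chains together. Dnaic1 had signals of 8.44, 8.99, 7.95 and 8.59 in PBS and 5.12, 5.91, 4.66 and 5.40 in SP. Its measured difference was -3.22 ± 0.29 (log2, SE, limma adjusted p = 8.07e-05), but it was above background on 1 of the 4 SP arrays, and with the other 3 set to background it was at least 6.32-fold lower. Dnaic2 was 5.06-fold lower. Zmynd10, a cytoplasmic factor that assembles the arms before transport, had means of 8.39 in PBS and 5.41 in SP, and was at least 6.08-fold lower when SP was set to the background level.

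The inner dynein arms shape the bend of the cilium, and all 5 genes with a row in this group, which includes the ruler protein of the axonemal repeat, were called lower. Dnali1, an inner arm light intermediate chain, had the largest measured fall of the 34 genes, with signals of 9.55, 9.81, 9.13 and 9.66 in PBS and 5.92, 6.58, 4.97 and 6.56 in SP. The SP values were spread more widely than the PBS values, and Dnali1 was 11.6-fold lower, with a 95% interval of 6.67 to 20.1 (limma adjusted p = 0.000116). It was above background on 3 of the 4 SP arrays. Dnah6, a single-headed inner arm heavy chain, varied most between SP arrays, at 7.63, 7.95, 5.91 and 6.92, against 10.09, 10.82, 9.51 and 9.94 in PBS. Its fall of 7.94-fold therefore carried a wide interval, 3.87 to 16.3 (limma adjusted p = 0.00109).

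Ccdc39 encodes a protein of the molecular ruler that spaces the inner arms and the spokes along the doublet, and it was 6.96-fold lower. Its partner Ccdc40 was among the genes without a row. The heavy chains Dnah2 and Dnah10 were at least 3.29-fold and at least 4.13-fold lower, both bounds set by the background on SP arrays.

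Radial spokes link the doublets to the central pair, and the 3 spoke genes with a row were called lower. Rsph4a, a protein of the spoke head, had signals of 10.17, 10.72, 9.83 and 10.30 in PBS and 7.24, 7.77, 6.44 and 7.28 in SP. The groups did not overlap and the fall was 8.42-fold (limma adjusted p = 9.38e-05). Rsph1 and Rsph9, also of the spoke head, were 6.18-fold and 4.43-fold lower.

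The central pair genes held both the second largest measured fall and the only gene with higher values in SP. Hydin, a very large central pair protein, had signals of 9.61, 10.33, 9.09 and 9.61 in PBS and 6.32, 6.39, 5.56 and 6.37 in SP. It was 11.3-fold lower, with a 95% interval of 7.24 to 17.7 (limma adjusted p = 4.43e-05). With SP signals below background set to it, Hydin was at least 10.4-fold and Dnali1 at least 9.64-fold lower, so that their order was not settled. Spag17 and Spef2 lie on the projections of the central pair. Spag17, above background on 1 SP array, was at least 7.34-fold lower. Spef2 had a measured fall of 7.54-fold, and was at least 7.07-fold lower with SP signals below background set to it.

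Spag6 (row NM_001001334) was the only gene of the 34 whose SP signals, 4.62, 4.68, 4.84 and 4.67, all lay above its PBS signals, 4.50, 4.48, 4.52 and 4.61. All 8 values lay below the background level, and the difference of 0.17 was not called (limma adjusted p = 0.0906). Mouse carries a near copy of this gene, Spag6l, for which PF16 and Spag6 are older names. Its row (NM_015773), chosen after its values were seen, had signals of 10.06, 10.46, 9.69 and 10.09 in PBS and 7.65, 7.66, 7.38 and 7.57 in SP. Spag6l was above background on every array and 5.70-fold lower in SP (log2 difference -2.51 ± 0.16, SE, limma adjusted p = 1.4e-05). The Spag6 row thus stayed at background, where 3 Y-linked genes differed by 0.12 to 0.19, while the row of its near copy fell. How sequence shared by the copies was assigned to the 2 rows was not tested.

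Spag16, another central pair gene, was likewise below background on all 8 arrays. Its row (NM_025728) is that of 1 of several RefSeq transcripts. Its signals were 4.94, 5.21, 4.99 and 4.94 in PBS and 4.50, 4.46, 4.71 and 4.50 in SP, which did not overlap and differed by -0.48 (limma adjusted p = 0.004), and no fold is given for values in that range. The call was lost when arrays were centred on their medians (-0.20, adjusted p = 0.136).

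Tektins are filaments within the wall of the doublets. Tekt1 was 3.41-fold and Tekt4 4.74-fold lower, and Tekt2, with means of 7.89 and 5.14, was at least 4.28-fold lower. Tppp3, a tubulin polymerisation protein that is abundant in multiciliated cells, had signals of 12.03, 12.19, 11.76 and 12.03 in PBS and 9.94, 9.96, 9.17 and 9.95 in SP. It remained far above background in both groups, so that its 4.75-fold fall (95% interval 3.50 to 6.45, limma adjusted p = 5.94e-05) was not limited by the background level.

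Intraflagellar transport genes serve both motile and primary cilia, and this group held the smallest called fall. Ift57, a protein of the train that moves toward the tip, had signals of 8.43, 8.74, 8.52 and 8.68 in PBS and 7.93, 8.14, 8.36 and 8.36 in SP. The highest SP values lay just below the lowest PBS value, and the gene was 1.32-fold lower (limma adjusted p = 0.0296). The call was lost with an intensity trend (adjusted p = 0.0585), with arrays centred, with quantile normalization and without PBS replicate 2, PBS replicate 4, SP replicate 1 or SP replicate 2. Ift88, of the same train, was 2.86-fold lower.

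Dynlrb2 is a roadblock light chain of dynein found with motile cilia, while its paralog Dynlrb1 serves cytoplasmic dynein in most cells. Dynlrb2 signals were 8.70, 9.11, 8.47 and 8.80 in PBS and 5.83, 6.32, 5.44 and 5.83 in SP, a 7.54-fold fall with a 95% interval of 5.50 to 10.3. Dynlrb1 signals were 11.63, 11.53, 11.45 and 11.49 in PBS and 11.11, 11.23, 10.74 and 11.21 in SP, a 1.37-fold fall with a 95% interval of 1.14 to 1.65. The intervals of the paralogs did not overlap. The Dynlrb1 call was lost with arrays centred (-0.17, adjusted p = 0.182).

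All 4 genes of the ciliary membrane, tip and base with a row were called lower. Cdhr3, a cadherin on the surface of ciliated cells and the receptor for rhinovirus C in humans, had signals of 10.86, 11.40, 10.37 and 10.91 in PBS and 8.01, 8.34, 7.34 and 8.11 in SP. It was 7.65-fold lower without overlap (limma adjusted p = 7.38e-05). Sntn, which encodes sentan of the ciliary tip, was 8.64-fold lower, Pifo, which acts at the base, 4.05-fold lower, and Ccdc113, a satellite and axonemal protein, at least 3.09-fold lower. Ak7, an adenylate kinase that recycles nucleotides within the cilium, had signals of 9.85, 10.43, 9.57 and 9.91 in PBS and 6.83, 7.25, 6.05 and 6.84 in SP, a 9.19-fold fall (limma adjusted p = 5.37e-05).

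**Figure D2:**
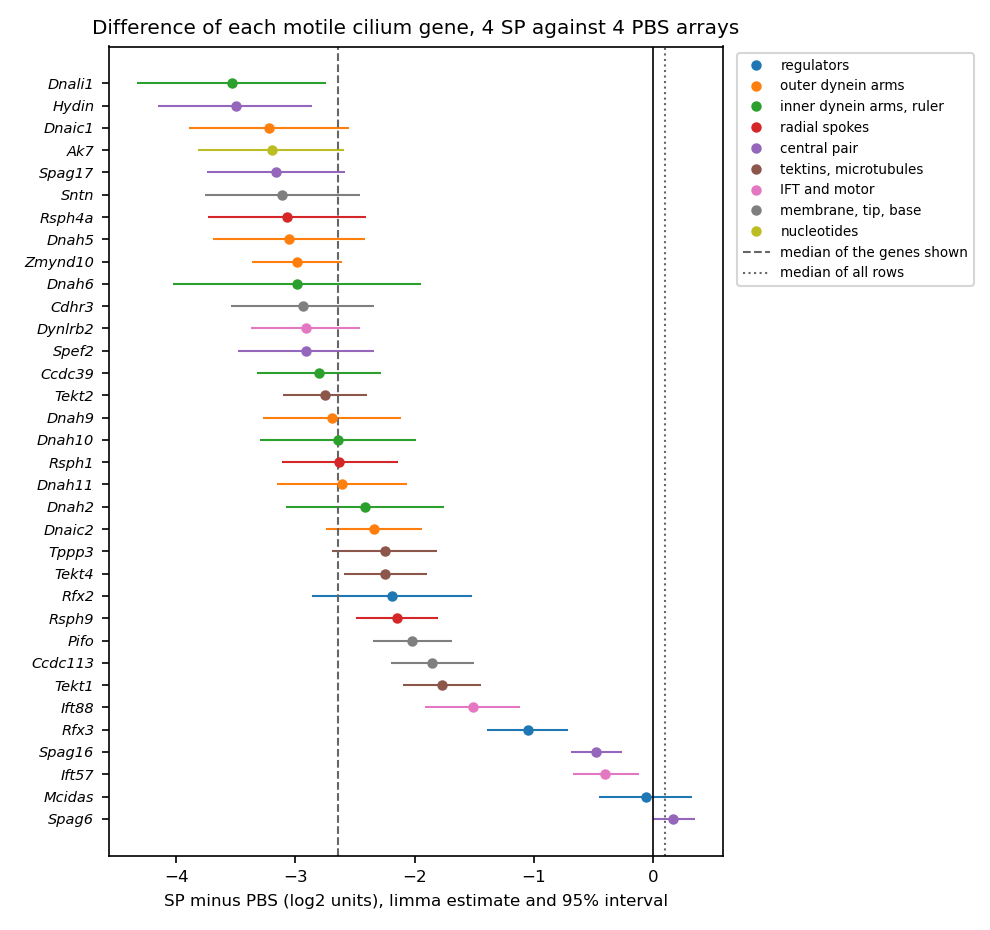
Difference between SP and PBS (log2 units, horizontal axis) of each of the 34 genes as estimated by limma, with its 95% interval as a bar and its role by colour, ordered by the difference. The dashed line is the median of these genes, -2.64, and the dotted line the median of all rows, 0.10, and 21 of the 34 intervals hold the dashed line.

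Most of the falls could not be separated in size from the median fall, and the genes were not tested against each other. The 95% interval held the median of -2.64 in 21 of the 34 genes, lay wholly below it for Dnali1 and Hydin, and lay wholly above it in 11 genes. These 11 were Rfx3, Mcidas, Rsph9, Spag6, Spag16, Tekt1, Tekt4, Ift57, Ift88, Pifo and Ccdc113. They included both genes with a row of the transport train and 2 of the 3 regulators, and 4 of the 11 (Mcidas, Spag6, Spag16 and Ccdc113) were above background on no SP array. The differences of the 9 genes with a row and GTTGCCA in the promoter window had a median of -2.64 and ran from -3.50 (Hydin) to -0.06 (Mcidas). The 22 genes with a window but no such match had a median of -2.65 and a range from -3.53 to 0.17.

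**Figure D3:**
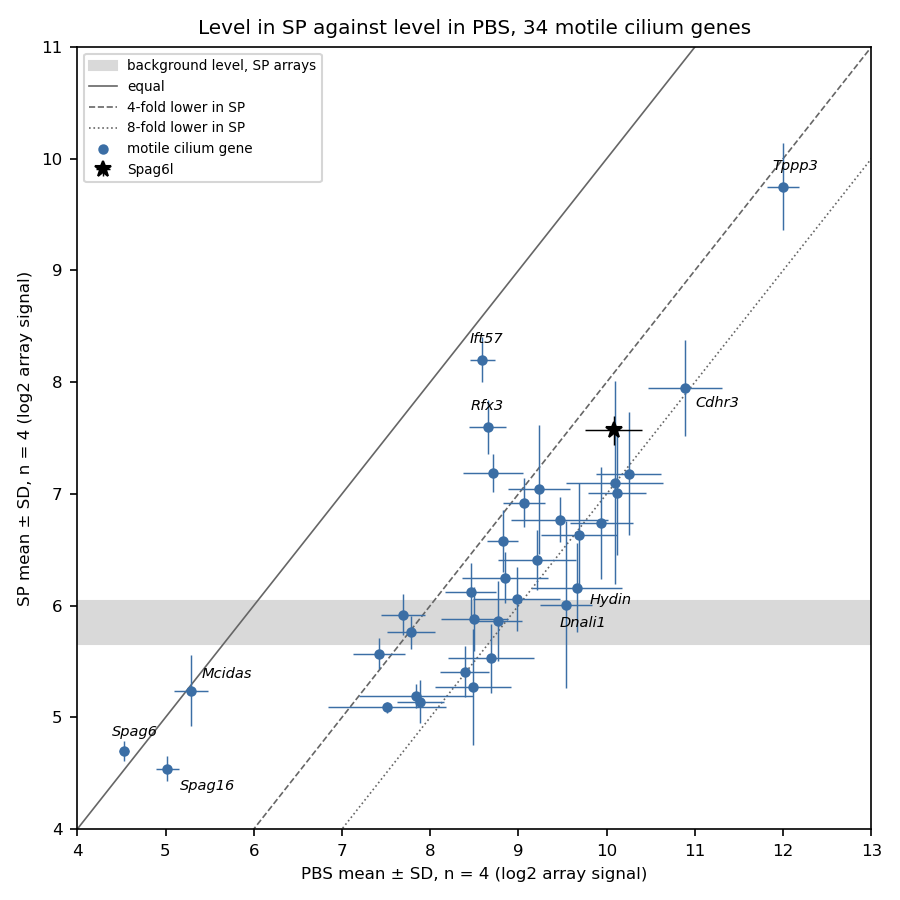
Mean signal in SP (vertical axis) against mean signal in PBS (horizontal axis), both log2, for the 34 genes as blue points and for Spag6l as a black star, with bars of 1 SD over 4 arrays. The grey band is the background level of the SP arrays, 5.66 to 6.04, and Tppp3, Cdhr3 and Spag6l lie above it in SP while Mcidas, Spag6 and Spag16 lie below it.

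The 34 genes moved together between arrays of the same group as well. PBS replicate 2 gave the highest PBS value in 31 of them (91.2%) and PBS replicate 3 the lowest in 27 (79.4%), where over all rows these arrays were highest in 31.9% and lowest in 24.4%. In SP, replicate 2 was highest in 22 genes (64.7%, all rows 21.8%) and replicate 3 lowest in 24 (70.6%, all rows 33.9%). The gap between groups was larger than these shifts, since the median deviation of PBS replicate 2 from the group mean was 0.38 and that of SP replicate 3 was -0.34. Without PBS replicate 2 the median difference of the 34 genes was -2.41, and without SP replicate 3 it was -2.55.

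Other genes of the pathway followed. Of a list of 74 further motile cilium genes, 66 had a row. Of these, 59 were called at least 2-fold lower (11.3% of all rows) and 0 higher (6.37% of all rows), with a median of -2.12. The 2 with the highest mean over all arrays, Rsph3b, of the radial spoke, and Meig1, were 2.62-fold and 2.31-fold lower (limma adjusted p = 6.12e-05 and 0.00039). The 5 with the highest PBS mean, a choice that favours large falls, were Nme5, Cfap206, Fam183b, Cfap44 and Capsl. Cfap44, which tethers the inner dynein motor, fell most among these 5, from 10.25, 11.04, 9.67 and 10.19 to 7.04, 7.20, 6.13 and 7.10, or 10.7-fold (limma adjusted p = 9.91e-05), and the others were 6.18-fold (Fam183b) to 7.06-fold (Capsl) lower. PBS replicate 2 was again highest, in 61 of the 66 genes.

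Genes that build primary as well as motile cilia fell with a smaller median. Of 33 further genes of intraflagellar transport and of the BBSome, a coat that moves membrane proteins in cilia, 25 were called at least 2-fold lower and 0 higher. Over all rows these shares were 11.3% and 6.37%. The median of the 33 genes was -1.60. The 2 with the highest mean, Ift20 and Ift46, were 1.97-fold and 1.96-fold lower (limma adjusted p = 0.00153 and 0.00194). Of 14 transition zone genes with a row, which gate entry to the cilium, 9 were called lower, the median was -1.43, and B9d2, named after its values were seen, was the only one called higher, at 6.70, 6.63, 7.07 and 6.89 in PBS and 8.31, 8.37, 8.23 and 7.92 in SP. Ahi1, of the same zone, rose 1.65-fold (limma adjusted p = 0.0275, lost without PBS replicate 1, 2 or 4 and with the methods' t-test), and the difference of Tmem67 was 0.10 (limma adjusted p = 0.689).

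Upstream genes of multiciliated differentiation, which amplify centrioles and start transcription, gave a mixed result. Of 16 such genes 5 were called at least 2-fold lower (11.3% of all rows) and 0 higher (6.37% of all rows), with a median of -0.71. With arrays centred, with quantile normalization and with dim rows left out, the count called lower was 3, 3 and 2. The 5, named after their values were seen, were Trp73, Deup1, Myb (2.70-fold), Tfdp1 (2.17-fold) and Gmnc. Trp73, Deup1 and Gmnc were above background on no SP array, and with SP set to background they were at least 1.89-fold, 2.02-fold and 1.18-fold lower. Trp73, a p53 relative that acts above Foxj1, had signals of 6.47, 7.42, 6.24 and 6.71 in PBS and 4.90, 5.23, 5.07 and 4.94 in SP. Of the 2 with the highest mean, E2f4 differed by 0.32 and was not called (limma adjusted p = 0.113), though it was called higher with arrays centred (0.60, adjusted p = 0.00584) and without SP replicate 3 (0.45, adjusted p = 0.0181), and Pcm1, of the centriolar satellites, was 1.89-fold lower (limma adjusted p = 0.00342).

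Lists of related genes with work outside the cilium or in the sperm tail had median differences from -0.29 to 0.13. Of 9 cytoplasmic dynein genes with a row, 2 were called at least 2-fold lower, where 11.3% of all rows were (Dynll2 and Dynlt3, named after their values were seen), and the median was -0.05. With arrays centred 0 of the 9 were called, and with quantile normalization 1. Dynll1, whose light chain also sits in axonemal dyneins, was 1.52-fold lower (limma adjusted p = 0.00181). Of 6 RFX family genes outside the 42, 0 were called at 2-fold, 3 were lower at an adjusted p of at most 0.05 (22.6% of all rows), and the median was -0.29, with Rfx1 at 1.54-fold and Rfx7 at 1.35-fold lower (limma adjusted p = 0.0137 and 0.00336), and both calls were lost with arrays centred and with quantile normalization. Of 17 genes of the sperm tail and spermatid, a related axoneme in another tissue, 0 were above background on every array of either group. At 2-fold 0 were called, and the median was 0.13. At an adjusted p of at most 0.05, 3 were higher (21.5% of all rows) and 0 lower. In that list, Prm1 was at 4.64 to 4.79 in PBS and 5.38 to 6.16 in SP, higher by 0.96 (limma adjusted p = 0.0016). It was above background on 1 SP array. Dnah8 was at 4.85 to 5.18 in PBS and 4.63 to 4.90 in SP, a difference called with quantile normalization alone (-0.30, adjusted p = 0.0248).

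Markers of neutrophils and of other lung cells were read beside these falls. Ly6g, the target of the beads, had no matched row. The mean of 8 other neutrophil markers was 12.73 to 13.12 on PBS arrays and 12.69 to 13.07 on SP arrays, and 0 of them were called at 2-fold. Among these arrays PBS replicate 2, the highest in motile cilium genes, was the lowest in 6 of the 8 neutrophil markers (36.3% of all rows). SP replicate 3, the lowest in motile cilium genes, was the highest in 6 of 8 (41.1% of all rows).

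Lists of airway and other lung cell markers had lower medians in SP as well. Of 9 club cell markers with a row, the secretory neighbours of ciliated cells, 8 were called at least 2-fold lower, where 11.3% of all rows were called so. The median of the 9 was -2.63, with a range from -3.01 to -0.63, and their mean ranged from 11.52 to 12.44 on PBS arrays and 8.92 to 10.25 on SP arrays. Scgb1a1, the brightest of the list, was not called at 2-fold and was 1.55-fold lower (limma adjusted p = 0.000231). All 6 general epithelial markers with a row were called lower (median -2.00, array means 10.80 to 11.23 in PBS and 8.42 to 9.45 in SP), as were 6 of 7 alveolar type 1 markers (median -1.96), 6 of 10 alveolar type 2 markers (median -1.15, 11.53 to 12.10 and 9.76 to 11.09), 7 of 10 endothelial markers (median -1.39, 10.20 to 11.16 and 8.57 to 9.81) and 4 of 4 mesothelial markers (median -2.67). Basal cell markers (1 of 5 called lower, Krt15) lay near background, with 1 gene of the list above it on every PBS array. The part of these other cells in the fall of the motile cilium genes was not tested.

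Array by array, the club cell, alveolar type 2 and endothelial lists followed the motile cilium genes in part. SP replicate 3 was the lowest SP array in 24 of the 34 motile cilium genes (33.9% of all rows). It was lowest in 6 of 9 club cell, 8 of 10 alveolar type 2 and 8 of 10 endothelial markers. SP replicate 4 was the highest SP array in 9 of 9 club cell, 9 of 10 alveolar type 2 and 7 of 10 endothelial markers. It was highest in only 4 of the 34 motile cilium genes (23.7% of all rows). In PBS these lists ran together, with replicate 2 highest in 8 of 9 club cell, 9 of 10 alveolar type 2 and 9 of 10 endothelial markers (31.9% of all rows). The mean of the mesothelial list was instead lowest on PBS replicate 2 (9.10) and highest on PBS replicate 3 (9.81).

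**Figure D4:**
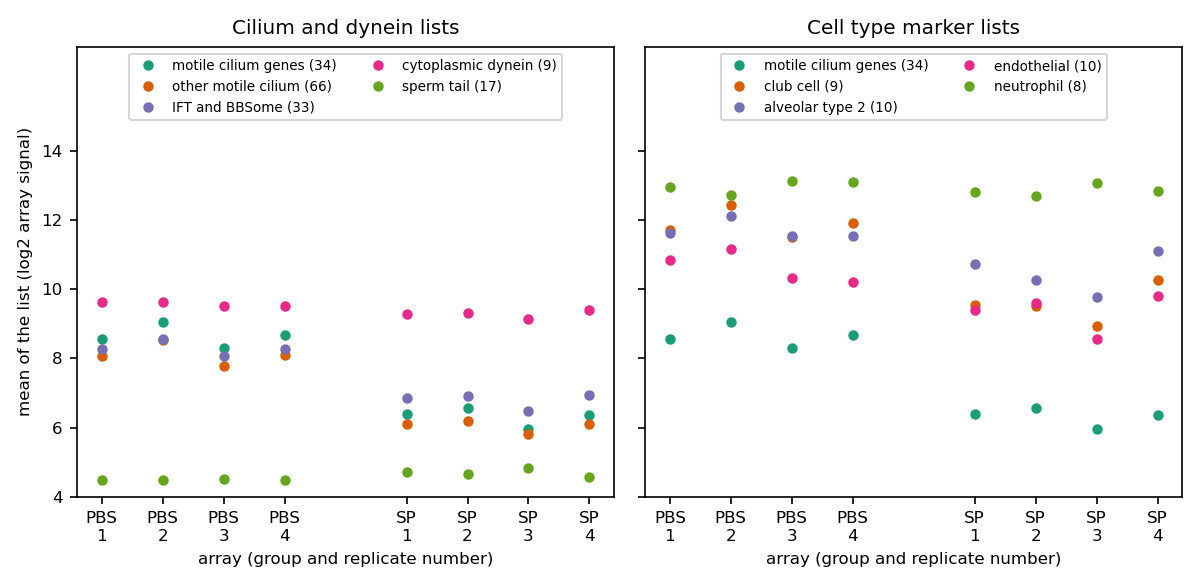
Mean log2 signal of gene lists (vertical axis) on each of the 8 arrays (horizontal axis), with the number of genes with a row in brackets, for cilium, dynein and sperm tail lists on the left and cell type markers on the right, where the 34 motile cilium genes are repeated. The motile cilium means are 8.30 to 9.06 in PBS and 5.97 to 6.55 in SP, and the neutrophil means stay between 12.69 and 13.12. SP replicate 4 is the highest SP array for club cell, alveolar type 2 and endothelial markers.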

How the data were processed

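Lung neutrophil mRNA of 8 mouse samples (4 PBS, 4 SP, grouped by sample title) was measured on Affymetrix Mouse Gene 1.1 ST arrays. The deposited values are log2 intensities that the authors made by RMA (background, GC and sequence correction, quantile normalization, median polish), with probesets merged per gene or transcript. The submitters' processing notes name Affymetrix Expression Console and Partek. The number of arrays limits the precision. The array medians still differed (PBS 6.06 to 6.20, SP 5.78 to 5.91). RefSeq row identifiers were matched to symbols of RefSeq on GRCm38.p6, which named 19915 of 24625 rows (80.9%). Neither Foxj1 nor Ly6g was among them.

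SP was compared with PBS over all rows with limma 3.58.1 in R 4.3.3 (lmFit, eBayes, Benjamini-Hochberg), at an adjusted p of 0.05 and 2-fold, the thresholds of the methods, and the code was tested on simulated data. Figures used matplotlib 3.10.9. Values in every sample are given for the brightest gene of each role, the 3 largest and 3 smallest differences and each gene not called. Of other lists, the 2 brightest genes were named (of other motile cilium genes also the 5 with the highest PBS mean), except for cell type markers, given as counts. Of these markers, Krt15 and Scgb1a1 were named after their values were seen. The genes and lists were chosen with earlier results of these data known. Alternatives were the methods' t-test, an intensity trend with a robust prior, the replicate number as a block, median centring, quantile normalization, a filter on dim rows, a test against 2-fold, Y-linked genes as background and leaving out each array. Protein sequences were not used here, and 1 marker list is not reported here.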

Additional observations from a re-analysis of the deposited data

Results flagged for a closer look

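Within each group of 4 arrays, a value was singled out when its gap to the nearest other value was large beside the range of the group (Dixon's test). Of 68 groups checked (34 genes in PBS and in SP) 6 held such a value, and chance gives about 5%. PBS replicate 2 was high in 3 genes, at 8.97 for Rfx3 (others 8.52 to 8.56), 8.18 for Pifo (7.61 to 7.69) and 5.21 for Spag16 (4.94 to 4.99, all below background). SP replicate 3 was low in the other 3, at 5.56 for Hydin (6.32 to 6.39), 9.17 for Tppp3 (9.94 to 9.96) and 6.48 for Dnah9 (6.83 to 6.90). The 6 values came from the arrays that were most often highest in PBS and lowest in SP over the 34 genes, so they are not 6 independent events.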

How the results depend on the processing

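The fall of the motile cilium genes kept its size under every alternative: 28 (test against 2-fold) to 30 of the 34 genes were called at least 2-fold lower, 29 to 30 without any single array, and 29 were so in each setting that tested them other than the test against 2-fold. Their median ran from -2.81 to -2.35, and centring shifted all differences by 0.28 (row median 0.38). Of 473 recomputed differences 459 kept direction and call. Mcidas reversed to 0.22 with arrays centred, and to 0.02, 0.05 and 0.01 without PBS replicate 4, SP replicate 2 and SP replicate 4 (-0.18 to 0.05 without single arrays). Spag6 was called higher with the intensity trend (0.17, adjusted p = 0.0495) and with centring (0.45), so that 1 gene was called higher there. Tmem67 reversed to -0.12 without SP replicate 3 (-0.12 to 0.18 without single arrays) and Dnah8 to 0.10 with centring (-0.30 and called lower with quantile normalization). With centring, quantile normalization and the filter on dim rows, 3, 3 and 2 upstream genes of multiciliated differentiation were called lower. Centring and quantile normalization left 0 and 1 cytoplasmic dynein genes lower (1 to 2 without single arrays) and gave 2 and 2 transition zone genes higher. Centring called 1 sperm tail gene higher (0 to 1 without single arrays). Basal markers called lower went to 0 with centring and with the dim filter. With Y-linked genes as background, 31 genes were above it on every SP array. Causes of these changes were not tested. Same-numbered PBS and SP arrays did not deviate together (r = 0.02, 0.03, 0.35 and -0.27), and with the replicate block 30 genes were called lower. Of the 34 genes 22 were at background on at least 1 SP array, which limits their folds.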
